A study of Homo sapiens with 6 samples.

Results

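Small nucleolar RNA (snoRNA) host transcripts are spliced RNAs whose introns carry the snoRNAs that guide chemical modification of ribosomal RNA. The 10 described here are GAS5, SNHG1, SNHG5, SNHG6, SNHG8, SNHG12, SNHG15, SNHG16, ZFAS1 and EPB41L4A-AS1, all annotated as long non-coding RNAs. They were found by matching the NCBI Gene IDs of the count files to these symbols, which gave 10 of 28395 gene entries. All 10 passed the filter on low counts and were among the 13767 genes tested.

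The libraries came from HCT116, an established human colorectal cancer line with an epithelial character. In 1 group, 3 libraries were made from cells given 50 nM TR-107, an agonist of the mitochondrial protease ClpP, for 24 h. In the other, 3 libraries were made from cells given the vehicle, 0.1% DMSO, for the same 24 h. RNA was enriched by its poly(A) tail before sequencing, and the files give the raw number of reads counted for each gene. Replicates are described as biological in the series' design, but the labels do not say how the cultures were kept apart, so the p-values below cover only how far these libraries spread.

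When the introns of a host transcript are spliced out, box C/D snoRNAs, which direct methylation of ribose, or box H/ACA snoRNAs, which direct the conversion of uridine to pseudouridine, are trimmed from them. The exons left behind form an RNA with only short reading frames. Several such RNAs, GAS5 first among them, are known to associate with ribosomes and to be degraded by nonsense-mediated decay, a pathway that acts during translation on RNAs whose stop codon lies well before the last exon junction. GAS5 and several SNHG genes also belong to the 5′ terminal oligopyrimidine (TOP) class, whose RNAs start with a C followed by a run of pyrimidines and whose translation depends on growth signals, as for the mRNAs of ribosomal proteins.

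The starts of the genes are shown because the TOP class is defined there. Each line gives the 20 bases before and the 20 from the start annotated by RefSeq in GRCh38.p14, read 5′ to 3′ on the gene's strand. Capitals mark a tract made of C followed by at least 4 bases that are each C or T. A tract counted where any part of it lay within 10 bases of the annotated start.
ZFAS1 (chr20:49278622-49278661, plus strand): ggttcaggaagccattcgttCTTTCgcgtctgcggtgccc
SNHG5 (chr6:85678714-85678753, minus strand): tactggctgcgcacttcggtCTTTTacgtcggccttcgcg
SNHG8 (chr4:118278742-118278781, plus strand): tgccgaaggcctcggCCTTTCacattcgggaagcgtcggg
SNHG12 (chr1:28581854-28581893, minus strand): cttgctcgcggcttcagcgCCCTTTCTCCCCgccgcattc
SNHG16 (chr17:76557744-76557783, plus strand): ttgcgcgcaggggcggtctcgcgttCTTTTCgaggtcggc
GAS5 (chr1:173869026-173869065, minus strand): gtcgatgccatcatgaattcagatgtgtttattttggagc
SNHG1 (chr11:62855866-62855905, minus strand): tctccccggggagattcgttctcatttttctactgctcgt
EPB41L4A-AS1 (chr5:112160506-112160545, plus strand): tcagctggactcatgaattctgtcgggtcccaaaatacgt

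The table holds 1 start per gene, and for ZFAS1 and SNHG12 the RefSeq gene span given below begins further upstream. In ZFAS1 and SNHG5 the tract began exactly at the start in the table. SNHG12 had the longest tract, of 12 bases, and it began 1 base before that start. In SNHG8 it began 5 bases before the start and in SNHG16 5 bases after it. GAS5, SNHG1 and EPB41L4A-AS1 had no tract in this window, and the RefSeq start of GAS5 lies upstream of the start of the GENCODE transcript used below. The promoter table held 8 of the 10 members, and 5 of the 8 (62.5%) had the tract. The share among all 27305 genes of the table was 37.4%, and it was 88.9% for ribosomal protein genes (56 of 63). Among the other non-coding snoRNA hosts listed below it was 66.7% (12 of 18), so the tract is not particular to the members. The search used only the strand of the gene, and a match or its absence describes these letters alone.

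In all 10 transcripts the frame opened by the first ATG ends early. In the GENCODE v29 transcript linked to the lowest-numbered RefSeq non-coding entry of each gene, the first ATG opened a frame of 5 to 117 codons. Its stop codon ended 169 bases (SNHG5) to 698 bases (EPB41L4A-AS1) before the last exon junction. In 72.3% of 50893 spliced non-coding GENCODE transcripts the same stop codon also lay more than 50 bases before that junction, so the layout is common among such RNAs. The longest frame, in contrast, ended after the last junction in GAS5, SNHG5 and SNHG12 (distances from stop to junction of -158, -44 and -108 bases) and before it in the other members. Whether any of these frames is translated was not measured. The frame of SNHG12, the member that fell, is printed as an example, as DNA letters of the spliced transcript, with the start and stop codons in capitals.
SNHG12 first reading frame: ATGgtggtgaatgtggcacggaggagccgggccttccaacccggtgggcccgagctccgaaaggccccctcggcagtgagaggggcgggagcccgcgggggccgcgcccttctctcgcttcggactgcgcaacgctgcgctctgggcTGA

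The SNHG12 frame holds 49 codons and starts at base 77 of the 682-base transcript on chromosome 1, with 5 exon junctions after the stop.

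The members differ in how many snoRNAs they carry. GAS5 (chr1:173863901-173869045, minus strand) has 11 snoRNA genes within its span, 10 of them box C/D, and SNHG1 (chr11:62851978-62855885, minus strand) has 8. SNHG12 (chr1:28578538-28582983, minus strand) has 4, of which 3 are box H/ACA. ZFAS1 (chr20:49278178-49289260, plus strand) and SNHG16 (chr17:76557764-76565348, plus strand) have 3 each, and SNHG5 (chr6:85677007-85678733, minus strand) has 2. The remaining members carry 1 each: SNHG8 (chr4:118278762-118279823, plus strand), SNHG15 (chr7:44983023-44986696, minus strand), SNHG6 (minus strand) and EPB41L4A-AS1 (chr5:112160526-112162501, plus strand). Positions are those of RefSeq genes in GRCh38. By the place of the snoRNA genes in the chosen transcripts, all lie in introns except SNORD25 in SNHG1 and SNORA103 in GAS5, which lie in an exon. The 3 snoRNAs of ZFAS1 are printed from GENCODE v29 as an example of related copies in 1 host, with the box C letters (TGATGA) and the box D letters (CTGA) in capitals.
SNORD12C (chr20:49278940-49279028, plus strand): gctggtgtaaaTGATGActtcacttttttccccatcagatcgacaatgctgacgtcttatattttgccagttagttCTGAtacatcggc
SNORD12B (chr20:49280319-49280409, plus strand): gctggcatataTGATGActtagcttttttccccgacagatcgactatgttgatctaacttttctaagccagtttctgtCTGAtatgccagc
SNORD12 (chr20:49280683-49280772, plus strand): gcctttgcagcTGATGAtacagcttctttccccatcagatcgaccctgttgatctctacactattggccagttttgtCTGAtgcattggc

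**Figure D1:**
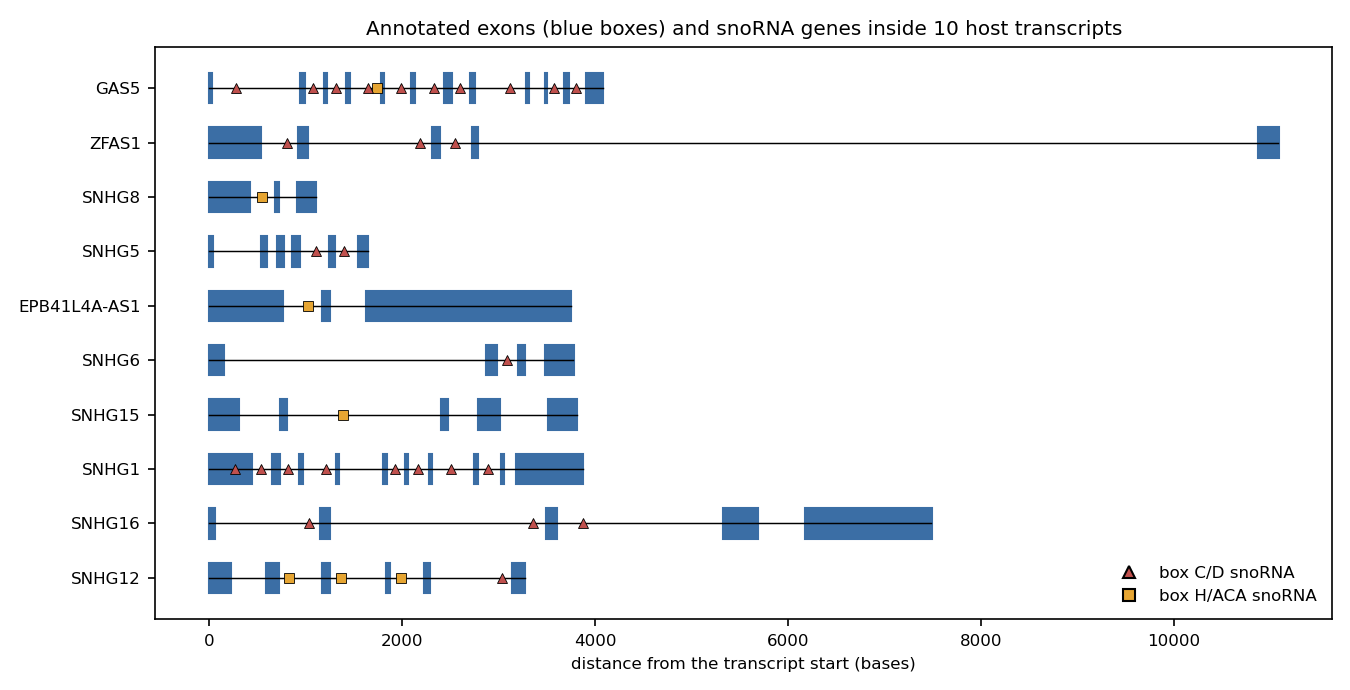
Exons (blue boxes) and snoRNA genes (red triangles for box C/D, orange squares for box H/ACA) of the 10 host transcripts, drawn to scale as distance in bases from the transcript start. GAS5 has the most snoRNA genes (11) spread over 12 exons, and SNHG8, SNHG6, SNHG15 and EPB41L4A-AS1 have 1 each.

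Libraries held 17264039 to 23708135 counted reads, and a member had 218 to 9468 reads in a library, so counting error was small beside the changes described first below. Epithelial markers were present throughout (EPCAM at 372 to 404 and KRT8 at 2591 to 2756 CPM, read counts scaled to a common library total), although the villus marker VIL1 had at most 1 read. Of the markers of other cell types, PTPRC, CD3E and CDH5 had no read, PDGFRB and PECAM1 had at most 7 and COL1A2 at most 2, while COL1A1 stood at 13.2 to 18.1 CPM and CD68 at 4.84 to 13.5 CPM. No library was left out.

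Most members rose with TR-107. By edgeR's quasi-likelihood test with Benjamini-Hochberg adjustment at 0.05, 8 of 10 were higher, SNHG12 was lower and SNHG16 was not called. Of all 13767 genes tested, 57.8% were called, 29.2% as higher and 28.6% as lower. GAS5, ZFAS1, SNHG8 and SNHG5, 4 of the 10, rose at least 2-fold, against 6.55% of all genes tested. All 3 TR-107 libraries lay above all 3 DMSO libraries for 8 members and below them for 1, where the shares among all genes were 31.5% and 30.9%. The median log2 fold change was 0.77 over the members and 0.01 over all genes tested. These are levels in RNA from whole cultures, in which fewer cells of a kind and less RNA per cell cannot be told apart.

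GAS5, a growth arrest transcript that can also bind the glucocorticoid receptor, rose the most. Its level was 87.9, 80.8 and 79.8 CPM in the DMSO libraries and 293.5, 288.9 and 289.7 CPM in the TR-107 libraries. The groups were far apart and the TR-107 libraries nearly equal to each other. The means were 82.8 ± 4.40 and 291 ± 2.46 CPM (SD, n = 3 each), a rise of 3.51-fold. The log2 fold change was 1.81 ± 0.05 (SE; edgeR adjusted p = 6.11e-31), which placed GAS5 at rank 248 among the 13767 genes when ordered from the highest fold change.

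ZFAS1, named for its position antisense to the start of the zinc finger gene ZNFX1, rose almost as much as GAS5. It was at 75.9, 72.6 and 71.6 CPM with DMSO and at 254.9, 266.6 and 238.5 CPM with TR-107. Every TR-107 library stood at more than 3 times the level of every DMSO library. The log2 fold change was 1.79 ± 0.05 (SE; edgeR adjusted p = 6.13e-30), a 3.45-fold rise and rank 258 of all genes tested.

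SNHG8 and SNHG5 formed a second pair, with rises a little over 2-fold. SNHG8, host of the box H/ACA snoRNA SNORA24, was at 30.2, 33.5 and 33.0 CPM with DMSO and at 72.6, 74.1 and 76.5 CPM with TR-107. Its log2 fold change was 1.20 ± 0.07 (SE; edgeR adjusted p = 1.46e-18). SNHG5, host of SNORD50A and SNORD50B, was at 30.1, 25.8 and 25.8 CPM with DMSO and at 55.9, 61.3 and 59.1 CPM with TR-107. Its log2 fold change was 1.11 ± 0.08 (SE; edgeR adjusted p = 1.03e-15). In both genes every TR-107 library was well above every DMSO library.

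EPB41L4A-AS1, which lies antisense within the span of EPB41L4A and hosts SNORA13, nearly doubled from a low level. Its values were 11.7, 13.8 and 12.9 CPM with DMSO and 25.2, 24.7 and 24.7 CPM with TR-107, with no overlap. The log2 fold change was 0.96 ± 0.11 (SE; edgeR adjusted p = 9.98e-10), or 1.94-fold.

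SNHG6 (chr8:66921690-66925541), host of SNORD87, rose less and less evenly. It was at 86.2, 84.1 and 88.3 CPM with DMSO and at 110.6, 135.2 and 140.0 CPM with TR-107. The first TR-107 library lay well below the other two, yet still above all DMSO libraries. The log2 fold change was 0.58 ± 0.06 (SE; edgeR adjusted p = 1.23e-08), or 1.49-fold.

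SNHG1 and SNHG15 had the smallest rises. SNHG1, the host of SNORD22 and SNORD25 to SNORD31, was at 121.6, 107.4 and 110.2 CPM with DMSO and at 139.2, 141.0 and 124.4 CPM with TR-107. The gap between the lowest treated and the highest control library was small. The log2 fold change was 0.26 ± 0.05 (SE; edgeR adjusted p = 0.000104), or 1.19-fold. SNHG15, host of SNORA9, was at 22.3, 22.9 and 22.6 CPM with DMSO and at 28.6, 30.8 and 25.1 CPM with TR-107, again without overlap. Its log2 fold change was 0.32 ± 0.10 (SE; edgeR adjusted p = 0.00523), and without the second TR-107 library the call was lost (0.25, edgeR adjusted p = 0.0511).

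SNHG16 and SNHG12 were the members outside this rise. SNHG16, host of SNORD1A, SNORD1B and SNORD1C, was the member with the most reads and stood at 404, 383 and 392 CPM with DMSO and at 404, 401 and 372 CPM with TR-107. The groups overlapped, with a log2 fold change that edgeR put at 0.00 ± 0.04 (SE; adjusted p = 0.958). SNHG12, host of SNORD99 and 3 box H/ACA snoRNAs, was at 32.9, 29.5 and 28.2 CPM with DMSO and at 22.0, 23.8 and 21.2 CPM with TR-107. All treated libraries lay below all control libraries, and SNHG12 was 1.35-fold lower. On the log2 scale its change was -0.44 ± 0.10 (SE; edgeR adjusted p = 0.000151).

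**Figure D2:**
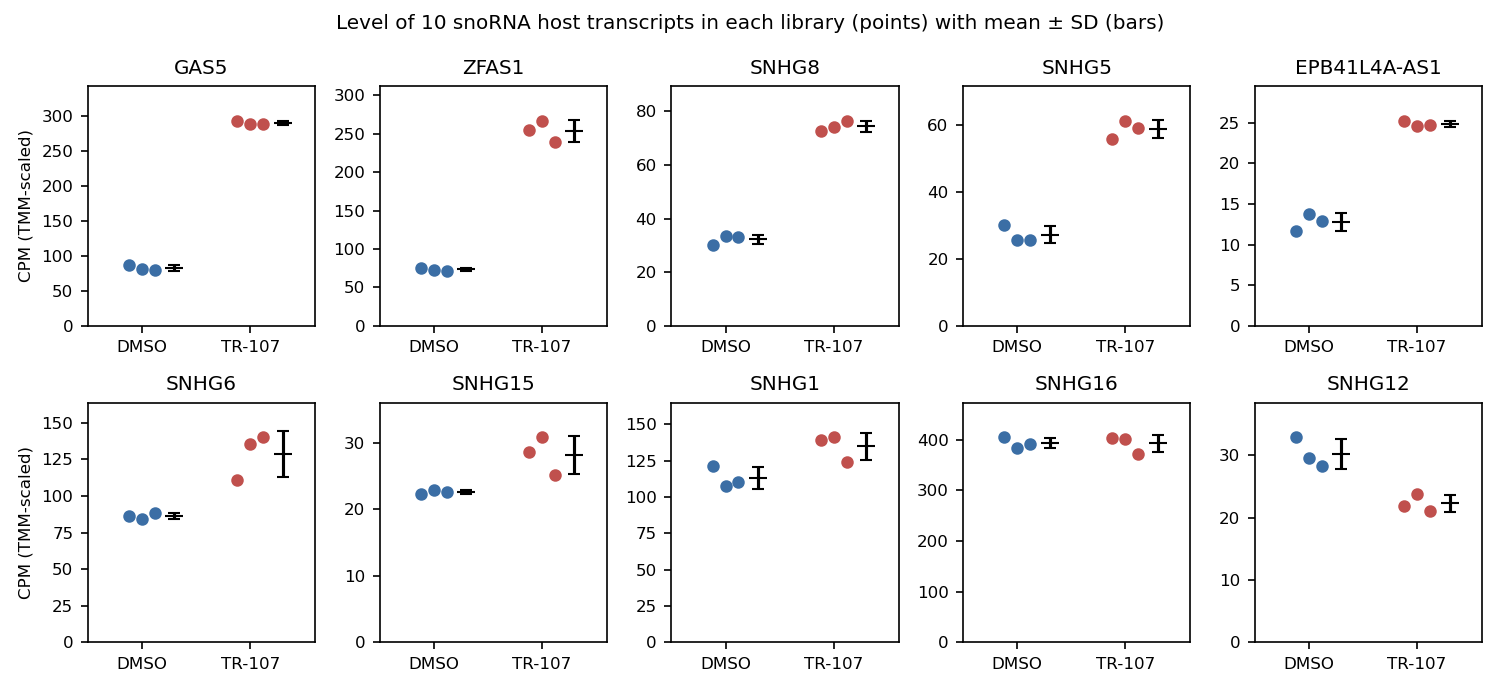
Level of each member in CPM (vertical axes, each starting at 0) in the 3 DMSO libraries (blue) and the 3 TR-107 libraries (red), with the mean and SD of each group as black bars. GAS5 and ZFAS1 rise to above 230 CPM in every treated library, SNHG16 overlaps between groups, and SNHG12 is lower in every treated library.

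Members can be compared with each other only per length of transcript, here as CPM per kilobase of the chosen GENCODE transcript. The annotation the authors counted against is not given in the sources used here, so this order is approximate. With DMSO, SNHG16 led at 202 CPM per kilobase, followed by SNHG6 at 135 and GAS5 at 131, whose libraries overlapped. SNHG1 at 76.0 and ZFAS1 at 72.8 overlapped next, then came SNHG5 at 63.3, SNHG8 at 48.0 and SNHG12 at 44.3, the last pair overlapping, and SNHG15 at 23.0. With TR-107 the order changed at the top. GAS5 led at 460 CPM per kilobase and ZFAS1 was second at 251, above SNHG6 and SNHG16, which overlapped at 202 and 201. SNHG5 at 137, SNHG8 at 111 and SNHG1 at 90.7 followed without overlap, and SNHG12 at 32.7 overlapped with SNHG15 at 28.7. EPB41L4A-AS1 is left out, since its GENCODE transcript (2969 bases) is longer than its RefSeq gene (1976 bases).

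GAS5 and ZFAS1 made up most of the gain in reads of the members as a set. The 10 members held 0.0892% ± 0.00241 of all gene counts with DMSO and 0.138% ± 0.00473 with TR-107 (SD, n = 3 each), 1.54 times as much. GAS5 and ZFAS1 alone went from 0.0160% to 0.0532%, 3.33 times as much. The other 8 members went from 0.0733% to 0.0845%, or 1.15 times as much, and SNHG16 and SNHG1 hold most of those reads. No test was made of these sums, since the members were chosen.

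The snoRNAs inside the hosts can be set beside the exons. Mature snoRNAs have no poly(A) tail, so the reads below are not a measure of mature snoRNA, and reads from unspliced host RNA or from a host exon may be among them. The files held an entry for 34 of the snoRNA genes in the members, all but SNORA103, and 33 of them had a read, the exception being SNORA9 of SNHG15. By edgeR, 21 could be tested, and the only one called was SNORA61 of SNHG12, which fell by 0.64 ± 0.21 on the log2 scale (SE; adjusted p = 0.00779). Of all genes tested, 57.8% were called. The SEs of the 21 ran from 0.19 (SNORD25) to 0.79 (SNORD1A), against 0.04 (SNHG16) to 0.11 (EPB41L4A-AS1) for the hosts. An entry without a call is therefore not shown to be unchanged. At an unadjusted p under 0.05, edgeR gave 2 of the 21 as lower and none as higher. DESeq2 also called SNORA61 alone, and limma-voom called SNORA61 and SNORD1A, both lower.

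In GAS5 the exon reads rose while the snoRNA entries did not follow. The 10 snoRNA entries of GAS5 together held 246, 258 and 263 reads with DMSO and 219, 236 and 239 with TR-107, which is 11.8 and 12.3 CPM on average. Set against the reads of the GAS5 entry, which are counted separately, this was a ratio of 14.2% with DMSO and 4.23% with TR-107, and the GAS5 reads are what changed between the groups. SNORD80, with the most GAS5 snoRNA reads (70 to 96 per library), changed by 0.10 ± 0.24 on the log2 scale (SE; edgeR adjusted p = 0.755). In ZFAS1 the snoRNA entries held 21, 38 and 36 reads with DMSO and 17, 19 and 9 with TR-107, or 1.42 and 0.817 CPM, too few for more than a description. The snoRNA entries of SNHG1 held 14.5 CPM with DMSO and 14.9 CPM with TR-107, where SNHG1 itself rose 1.19-fold. Their reads were 304, 331 and 311 with DMSO and 278, 281 and 279 with TR-107. SNORD25, which lies in an exon of the chosen transcript, held 126, 151 and 151 of them with DMSO. With TR-107 it held 143, 102 and 163.

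SNHG12 was the member with a called snoRNA entry, and both the host and that entry were lower. Its 4 snoRNA entries held 221, 285 and 251 reads with DMSO and 126, 174 and 169 with TR-107, or 11.6 and 8.25 CPM. Set against the separately counted host reads this was a ratio of 38.3% and 36.9%. SNORA61 itself had 129, 145 and 151 reads with DMSO and 74, 78 and 84 with TR-107, with no overlap in CPM or in reads. The other 3 entries were not called. SNORA16A (-0.59) and SNORD99 (-0.59) were lower on the log2 scale, and SNORA44 was higher (0.19, edgeR adjusted p = 0.728). Over all members the snoRNA entries held 43.2 CPM with DMSO and 39.4 CPM with TR-107.

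**Figure D3:**
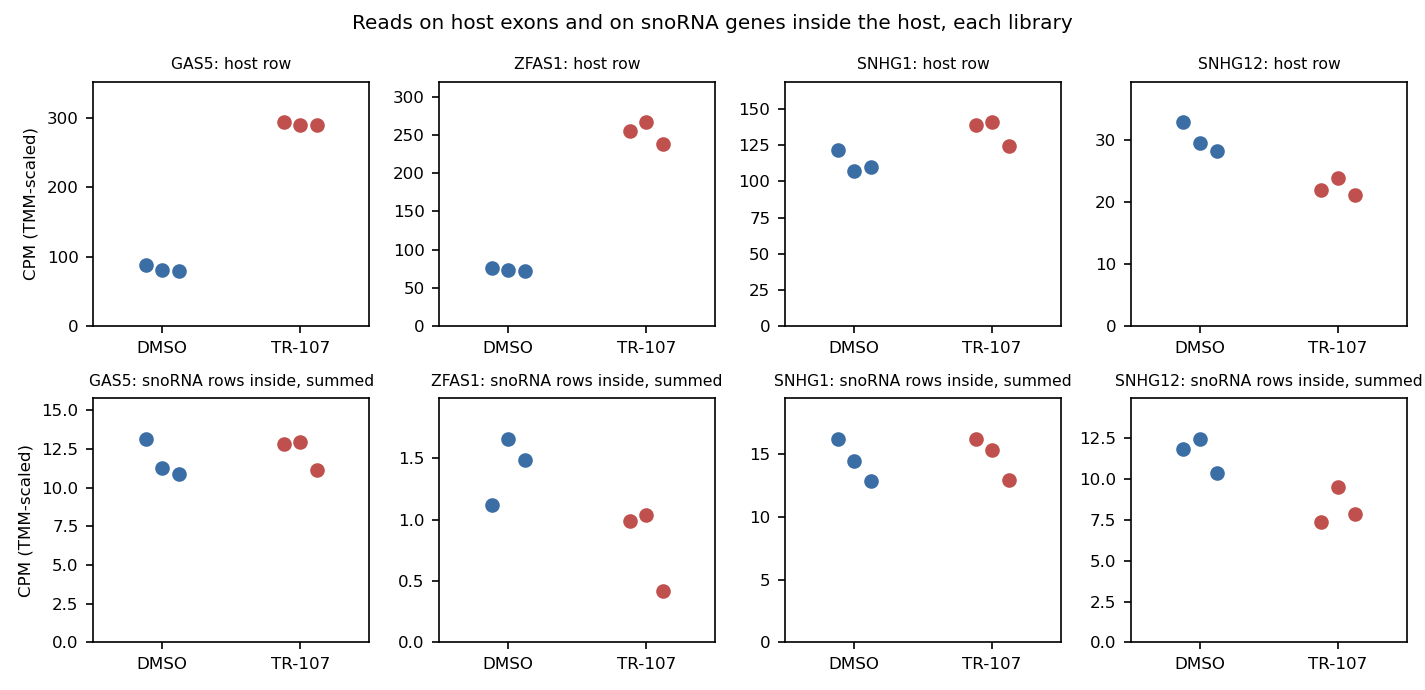
Level in CPM in each library (DMSO blue, TR-107 red) of 4 host entries (top) and of the snoRNA entries inside each, summed (bottom), with every axis starting at 0. The GAS5 host separates the groups widely while its summed snoRNA entries lie between 10.9 and 13.2 CPM in all libraries; SNHG12 is lower in both panels.

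Genes that overlap a member or start beside it matter because it is not given whether the counting used strand, and without strand reads of overlapping genes cannot be told apart. Genes that overlap a member's span on the opposite strand are GAS5-AS1 and ZBTB37 at GAS5, MCMDC2 at SNHG6, TRNAU1AP at SNHG12 and EPB41L4A at EPB41L4A-AS1. None of these was called by edgeR or had an unadjusted p under 0.05, the lowest adjusted p being 0.385 for MCMDC2, and the highest of them, TRNAU1AP, was at 15.7 CPM with DMSO and 14.6 CPM with TR-107. SLC3A2, the heavy chain of amino acid transporters, starts 224 bases from SNHG1 in the opposite direction. It rose from 370 ± 10.7 to 784 ± 9.29 CPM (SD, n = 3 each), or 2.12-fold (edgeR adjusted p = 2.24e-26), where SNHG1 rose 1.19-fold. ZNFX1, an RNA helicase gene, starts in the opposite direction 121 bases from the RefSeq gene span of ZFAS1. That span begins upstream of the ZFAS1 start printed above. ZNFX1 fell from 101 ± 1.16 to 82.0 ± 3.90 CPM (SD, n = 3 each; edgeR adjusted p = 7.63e-06), while ZFAS1 rose. ZFAS1 and ZNFX1 thus moved in opposite directions from a shared start region, and SNHG1 and SLC3A2 in the same direction by different amounts.

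Other non-coding hosts, from a list of names, moved both ways. Of 14 tested, 2 were higher (14.3%), 6 lower (42.9%) and 6 not called, with a median log2 fold change of -0.10. The shares among all genes tested were 29.2% higher and 28.6% lower. SNHG29 rose by 1.07 ± 0.04 and CYTOR, in whose span the annotation used here places no snoRNA gene, by 0.52 ± 0.13 on the log2 scale (SE). SNHG9 had a log2 fold change of -1.25 ± 0.30, SNHG4 of -0.90 ± 0.13, DANCR of -0.55 ± 0.06 and SNHG7 of -0.20 ± 0.06 (SE). GAS5, ZFAS1, SNHG8 and SNHG5 had higher fold changes than SNHG29, the highest of the 14. Taken by position in the annotation instead, 19 non-coding hosts other than the members were tested, with a median of -0.004. Of these, 4 were higher (21.1%), 6 lower (31.6%) and 9 not called. Besides SNHG29, those higher were STARD7-AS1 (1.43 ± 0.34), STX18-AS1 (1.18 ± 0.39) and THAP9-AS1 (1.05 ± 0.06; log2, SE). Of the members, only GAS5 and ZFAS1 had a higher fold change than STARD7-AS1, which was at 1.47 CPM with DMSO and 3.94 CPM with TR-107.

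**Figure D4:**
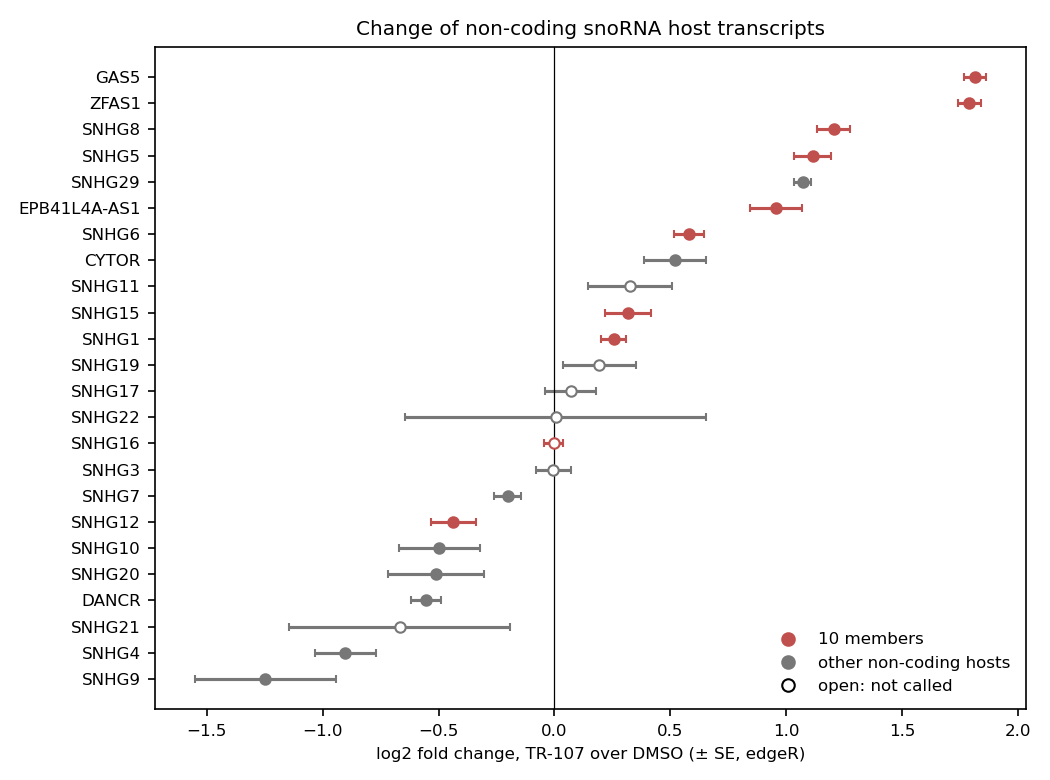
Log2 fold change (TR-107 over DMSO, horizontal axis) with SE from edgeR for the 10 members (red) and 14 other non-coding snoRNA hosts (grey), ordered by fold change, with open circles for genes not called. The 4 highest are GAS5, ZFAS1, SNHG8 and SNHG5, and the lowest is SNHG9.

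Many ribosomal protein genes host snoRNAs in their introns, and their mRNAs belong to the TOP class. Of 23 such hosts, 22 were higher and RPL17 was lower, with a median log2 fold change of 0.38. RPL17 had by far the lowest level of the 23, at 21.4 CPM with DMSO and 16.5 CPM with TR-107. The next lowest, RPS13, was at 372 CPM with DMSO. Why RPL17 had so few reads was not tested. The rises were led by RPL12 at 0.78, RPL3 at 0.73, RPL13A at 0.68 and RPS12 at 0.65. GAS5, ZFAS1, SNHG8, SNHG5 and EPB41L4A-AS1 had higher fold changes than RPL12, the highest of all 78 ribosomal protein genes tested. Ribosomal protein genes that host no snoRNA by the annotation mostly rose too, 38 of 49 being higher with a median of 0.27. The 3 lower were RPS10 (-2.05), RPS26 (-0.22) and FAU (-0.11). RPS10 had few reads, at 5.29 CPM with DMSO and 1.27 CPM with TR-107. Over all genes tested, 29.2% were higher and 28.6% lower. The share of all counts in ribosomal protein genes was 5.56% with DMSO and 7.01% with TR-107, and with scaling factors computed without ribosomal protein and mitochondrial genes 8 members were again higher and 1 lower, with GAS5 at a log2 fold change of 1.81.

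Other coding hosts moved both ways. Of 17 tested, 7 were higher (41.2%), 8 lower (47.1%) and 2 not called, with a median log2 fold change of 0.11. The translation elongation factor EEF2 (0.71), TPT1 (0.67), the helicase EIF4A2 (0.57) and the ribosome-bound scaffold RACK1 (0.49) rose. The chaperone HSPA8 (-0.88), the nucleolar protein NCL (-0.72), the chaperonin subunit TCP1 (-0.71) and NOP56 (-0.50) fell. By position in the annotation, 184 tested coding genes outside the ribosomal proteins host a snoRNA, with a median log2 fold change of -0.06. Of these, 48 were higher (26.1%) and 85 lower (46.2%), against 29.2% and 28.6% of all genes tested.

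Listed TOP-class genes outside the ribosomal proteins, chiefly translation factors, mostly rose. The list shares genes with the coding hosts above, among them EEF2, TPT1 and RACK1. Of 15 in the list, 12 were higher and 3 not called, with a median log2 fold change of 0.40, where 29.2% of all genes tested were higher. EEF1A1, which brings aminoacyl-tRNA to the ribosome, was highest at 1.09 ± 0.03 (SE), below 4 members. EEF2, PABPC1 (0.59), the poly(A)-binding protein, and TPT1 followed.

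**Figure D5:**
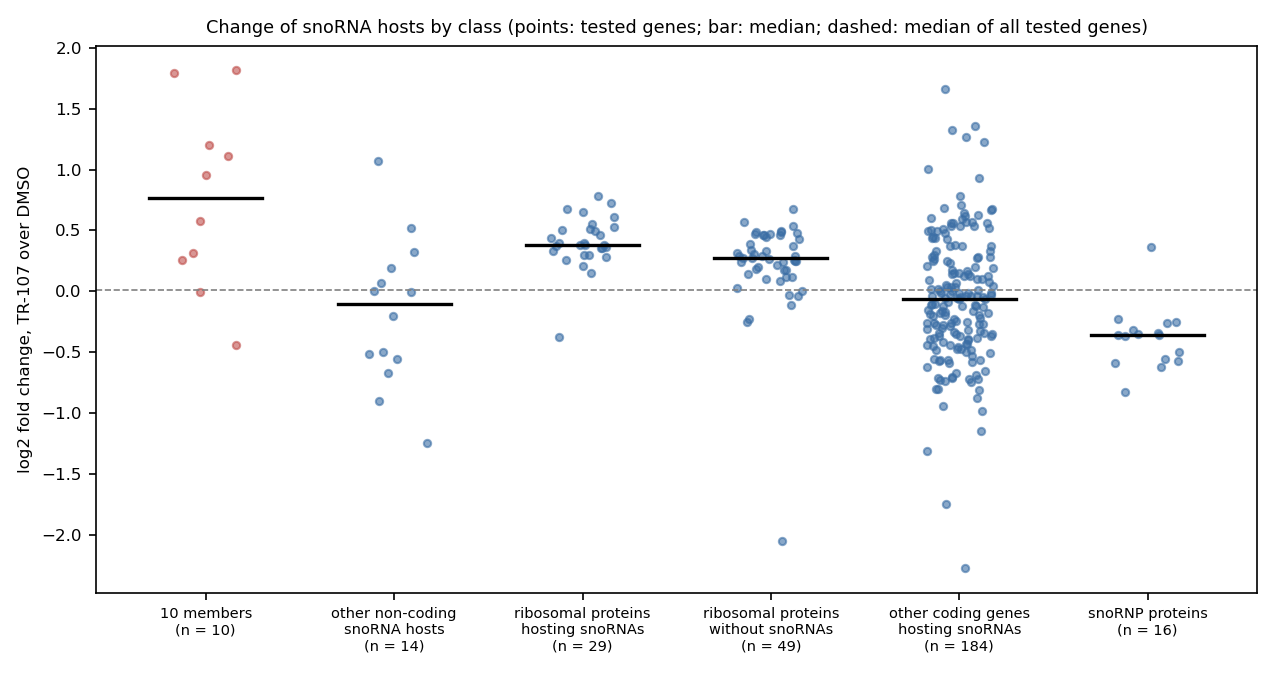
Log2 fold change (TR-107 over DMSO, vertical axis) of each tested gene in 6 classes, with the class median as a bar and the median of all tested genes dashed. Other non-coding hosts are the 14 listed by name, so STARD7-AS1, STX18-AS1 and THAP9-AS1 are not drawn. Ribosomal protein hosts (29) and other coding hosts (184, median -0.06) are taken by position in the annotation. The members have the highest median (0.77) and a wide spread from -0.44 to 1.81; snoRNP proteins have the lowest (-0.36).

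Transcripts of the proteins that bind and assemble snoRNAs mostly fell. Of 16 snoRNP proteins and assembly factors tested, 15 were lower and 1, the assembly factor ZNHIT6, was higher at 0.36. The median log2 fold change was -0.36, and 28.6% of all genes tested were lower. NOLC1 (-0.59), a chaperone of snoRNPs, NOP56 (-0.50), a core box C/D protein, RUVBL1 (-0.56), an assembly ATPase, and SHQ1 (-0.83), which helps to assemble box H/ACA particles, were among those that fell. The list holds proteins of both box C/D and box H/ACA particles, while the counted snoRNAs of GAS5 and ZFAS1 are all box C/D. The box C/D core proteins FBL (-0.25), NOP56, NOP58 (-0.34) and SNU13 (-0.32) were each lower at the RNA level, in libraries in which GAS5 and ZFAS1 rose.

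Factors of nonsense-mediated decay changed in both directions. Of 20 tested, 7 were higher (35%), 6 lower (30%) and 7 not called, with a median log2 fold change of 0.10. These shares are near those among all genes tested (29.2% and 28.6%). The exonuclease XRN1 (0.53), NBAS (0.47), UPF3A (0.42) and PNRC2 (0.24) rose, while EIF4A3 (-0.74), a core protein of the exon junction complex, UPF1 (-0.51), the central helicase of the pathway, SMG8 (-0.38) and RBM8A (-0.26) fell. The number higher was 4 with library size alone as the scaling (7 lower), and also 4 without the third DMSO library. Of 9 coding mRNAs known as targets of the pathway, 6 were higher, SMG5 was lower and 2 were not called, with a median of 0.90. With library size alone 5 were higher and 2 lower. DDIT3 (4.04), ATF3 (2.11), GADD45A (2.05) and ATF4 (0.96) led these rises, and all 4 are also genes of the stress response to unfolded proteins or amino acid shortage. GADD45B rose by 0.90 on the log2 scale, while SMG1 (0.16), TBL2 (0.15), UPF2 (-0.10) and SMG5 (-0.15) had small changes. SMG1, SMG5 and UPF2 are also counted among the 20 decay factors above. Whether decay of the members differed between the groups was not tested, since the files hold levels of RNA alone.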

How the data were processed

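The authors deposited 1 table of raw read counts for each of the 6 libraries. Per the submitters' processing notes, FastQC, Trimmomatic, HISAT2, featureCounts and the build hg38 were used. Neither their versions nor the annotation, strand rule or treatment of multi-mapped reads is given in the sources used here. Groups and replicate numbers came from the labels. Counts were used as deposited, and 27745 of 28395 gene IDs matched a symbol in RefSeq's GRCh38.p14 gene table. Groups were compared with the quasi-likelihood test of edgeR 4.0.16 in R 4.3.3 across all genes kept by filterByExpr, with TMM scaling, a robust fit, the group alone as design and Benjamini-Hochberg adjustment at 0.05. CPM used TMM-scaled library sizes, except for the markers of cell types, where it used the total counts of each library without that scaling. SE was derived from the test's F statistic. No gene list was tested as a set. Simulated counts with 200 changed genes were used to check the fit, and 98% of 1.5-fold and 100% of 2-fold and 4-fold changes were called in the right direction among 13768 genes. The changed genes all lay above a minimum level, and every gene had the same dispersion. Rises under 1.5-fold and a change as broad as the 7956 genes called here were not simulated. The check thus does not cover the smaller calls or the scaling under such a change. Within groups, replicate libraries differed by a chi-square of 3.92 to 6.05 per degree of freedom, so none was a duplicate.

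The same values were computed with DESeq2 1.42.0, with limma-voom (limma 3.58.1), with upper-quartile or relative log expression factors, with library size alone, without a filter, with a minimum of 1 CPM in 3 libraries, with a block for the replicate number, with factors computed without mitochondrial and ribosomal protein genes, and without each library in turn. The members and the gene lists were chosen with earlier results of these data known. The text names all members, the neighbouring genes, and, from each list, up to 4 genes per direction with the smallest p. TRNAU1AP, SNORD80, SNORD25, SNORA9, FBL, NOP58, SNU13, GADD45B, SMG1, TBL2 and UPF2 were singled out after their values were seen. Transcripts and snoRNA sequences are from GENCODE v29 and gene starts from RefSeq's GRCh38.p14 promoter table, which held 8 members. SNHG14, SNHG25, SNHG26, SNHG30 and SNORA103 were not analysed here. SNHG18, MEG8, EIF4A1 and ZNHIT3 had no read and SNHG32 at most 1. Tables and plots used Python 3.11.15, NumPy 2.4.6, pandas 2.3.3 and matplotlib 3.10.9. Of the frame sequences, only that of SNHG12 is given.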

Additional observations from a re-analysis of the deposited data

How the results depend on the processing

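Across the 15 alternatives, 7 of the 8 members that rose and SNHG12 kept their direction and their call, and SNHG16 was never called (log2 fold change -0.07 to 0.04). The exception was SNHG15 without TR-107 replicate 2, at 0.25 (edgeR adjusted p = 0.0511), the cause of which was not tested. GAS5 ranged from 1.75 to 1.85, ZFAS1 from 1.72 to 1.83 and SNHG12 from -0.50 to -0.38. The gain in the members' share of counts was 0.0484 percentage points, and 0.0536 when ribosomal protein genes were left out of the total, which lowers the total in both groups. With the replicate number as a block, 9 members were again called, 8 higher and 1 lower, and 7918 genes in all against 7956. Libraries of the same number did not deviate together (correlations -0.031, -0.018 and 0.049). This shows no pairing by number but does not settle whether the cultures were paired. The block changed no call of a member. Depth limits the snoRNA entries most, where many hold under 20 reads a library.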
